A study of Mus musculus with 74 samples.

Results

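This comparison set loss of the ring subunit Rad21 beside loss of the replaceable subunit Stag2 in the same blood progenitor line. HPC-7 is a mouse haematopoietic stem and progenitor line that grows with stem cell factor. The members are the 6 RNA-seq libraries of progenitor-stage (HPC) cells with an inducible short hairpin RNA against Rad21 (shRad21, libraries 1, 2 and 3) or against Stag2 (shStag2, libraries 1, 2 and 3). They were taken by title from 74 samples of the series, 15 of which are RNA-seq libraries. All 6 libraries came from cells given doxycycline for 72 h to switch the hairpin on, and each title ends in "(inhibitor)", a word for which no label gives a meaning. The control was 3 further libraries with the same treatment and a hairpin against luciferase (HPC Luc, libraries 1, 2 and 3). Other RNA-seq libraries are used below only as separate material. They are 2 HPC libraries with a hairpin against Smc1a (shSmc1a, titled shSmc1), and 2 libraries each of Luc and shStag2 cells (Ery) that received erythropoietin (EPO) and less stem cell factor for 48 h after the 72 h of doxycycline. The labels do not give the hairpins' sequences, whether a line was a clone, or whether libraries of 1 hairpin came from separate cultures. The p-values therefore rest on a spread between libraries that may be technical.

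Cohesin is a ring of Smc1a, Smc3 and Rad21 that entraps DNA, holds sister chromatids together and extrudes chromatin loops until it meets Ctcf. Rad21 closes the ring, and no other mitotic protein takes its place. Stag2 binds Rad21 from outside the ring, and its paralog Stag1 can occupy the same position. Genes of both kinds of subunit are mutated in human myeloid malignancies, Stag2 most often among them.

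The deposited values are read counts per Ensembl transcript identifier. None of the 55943 identifiers could be matched to a gene name with the reference tables used here (0 matched), so no gene, pathway, cell type marker or sequence is named, the fall of Rad21 and Stag2 in the libraries that bear their names was not analysed here, and only the first 2 identifiers that rose and the first 2 that fell are given. Transcripts are otherwise described by their number, direction and size of change.

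Assigned counts ran from 22288469 to 33355332 in the 6 libraries. Libraries numbered 3 stood apart. On the second principal component of log2 CPM (counts divided by library size after TMM scaling), with 19.6% of the variance of the 9 HPC libraries, the 3 libraries numbered 3 lay at 23.3 for Luc, 28.6 for shStag2 and 22.2 for shRad21, and the other 6 lay between -23.4 and 4.12. The first component, with 25.5%, ran from -34.1 to -21.9 in Luc libraries, from 4.28 to 14.9 in shStag2 and from 11.7 to 32 in shRad21. The ranges of the 2 knockdowns overlapped only across library numbers. Within a number shRad21 lay above shStag2, at 11.7 and 4.98 in number 1, 17.2 and 4.28 in number 2, and 32 and 14.9 in number 3. The most counted identifier took 25.8% to 28.6% of assigned counts in knockdown libraries 1 and 2, 33.2% and 33.4% in shStag2 3 and shRad21 3, and 30.5% to 33.6% in Luc. Reads outside annotated features made up 17.4% to 18% of counted reads in knockdown libraries 1 and 2 and 15.1% to 16.3% in knockdown libraries 3. Without the most counted identifier, 274 transcripts were called in the direct comparison below, 271 of them among its 277. The part of the reads outside features was not tested. Number 3 was fitted as a library set of its own, and results are also given from libraries 1 and 2 alone and from each same-numbered pair.

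**Figure D1:**
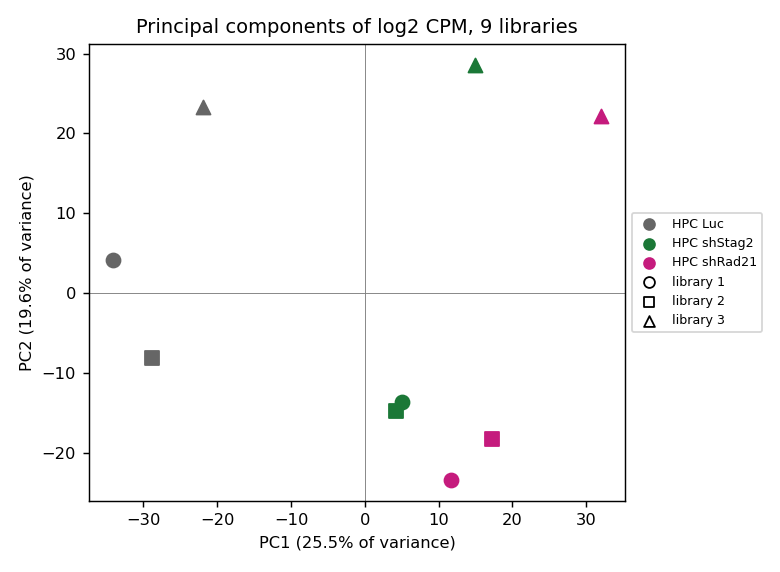
Principal components of log2 CPM for the 9 HPC libraries of the fit, PC1 (25.5% of variance) across and PC2 (19.6%) up; colour gives the hairpin and shape the library number. The 3 triangles, libraries numbered 3, lie above the rest on PC2, and Luc libraries lie left of both knockdowns on PC1.

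The direct comparison asked which transcripts differ between loss of the ring subunit and loss of the replaceable one. With shRad21, 132 of 17231 transcripts tested were higher than with shStag2 (0.766%) and 145 were lower (0.842%), 277 in all (1.61%). Most differences were small. The median log2 fold change was 0.33 among those higher and -0.35 among those lower, the smallest called change was 0.16 in either direction, and 22 (0.128%) differed by at least 2-fold. For scale, the same fit called 2407 transcripts between shRad21 and Luc (14%), 1171 higher (6.8%) and 1236 lower (7.17%). Between shStag2 and Luc it called 1076 (6.24%), 575 higher (3.34%) and 501 lower (2.91%). Both of these use the same 3 Luc libraries. Calls are Benjamini-Hochberg adjusted p-values under 0.05 from edgeR's quasi-likelihood test.

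The count rested on the library set and on single libraries. Without the term for library number 3, edgeR called 11 transcripts in the direct comparison, 3 higher and 8 lower, with 1277 at an unadjusted p under 0.05. The spread fell with the term, the common biological coefficient of variation being 0.065 with it and 0.11 without. With only the 6 libraries and the term, 643 passed, and 644 without Luc 3. Leaving out shStag2 1, shStag2 2, shStag2 3, shRad21 2, shRad21 3 or Luc 2 gave 103, 100, 143, 103, 176 and 181. With no filter on low counts 560 of 28733 passed.

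**Figure D2:**
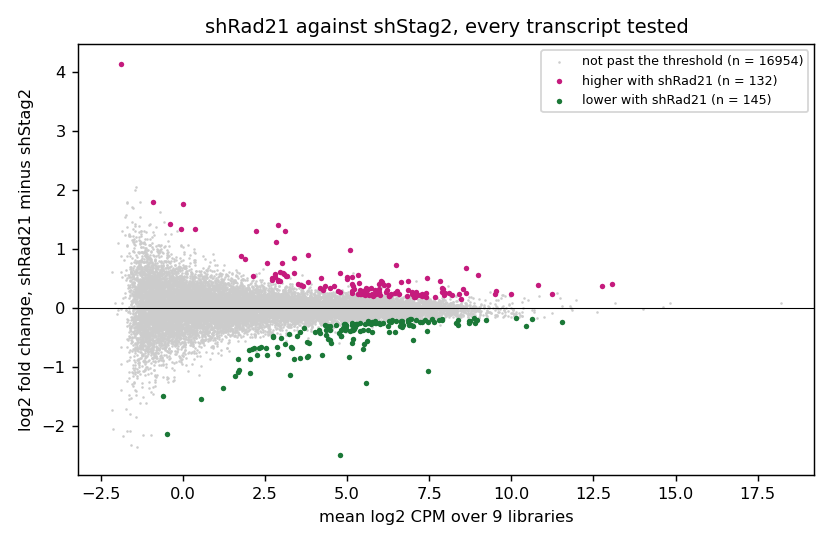
Fitted log2 fold change of shRad21 minus shStag2 against mean log2 CPM for the 17231 transcripts tested, each point a transcript. The 132 transcripts called higher and 145 called lower lie on both sides of 0 at all levels of expression, and called changes of highly counted transcripts are small.

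Calls were more frequent, and called differences smaller, among transcripts with higher counts. Among transcripts with a mean of 100 CPM or more over the 6 libraries, 76 of 1439 (5.28%) were called, with a median size of 0.24 on the log2 scale and a median standard error (SE) of 0.05 over all transcripts of that level. From 10 to 100 CPM, 145 of 4934 (2.94%) were called with a median size of 0.33. From 1 to 10 CPM it was 51 of 6270 (0.813%), with a median size of 0.72. Below 1 CPM only 5 of 4588 (0.109%) passed, and the median SE there was 0.39. The smallest called change in that lowest class was 1.35, well above the median size called in each higher class. Higher and lower calls were near balance at each level, 41 and 35 in the highest class and 66 and 79 in the next.

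More of the 277 transcripts were called against Luc with shRad21 than with shStag2. Of the 132 higher with shRad21, 98 were called higher and 2 lower than Luc with shRad21, with a median log2 fold change of 0.36. With shStag2, 43 of the same 132 were called higher and 22 lower, with a median of 0.02. Of the 145 lower with shRad21, 101 were called lower and 2 higher than Luc with shRad21 (median -0.3), and 25 lower and 26 higher with shStag2 (median 0.01). The medians over all 17231 transcripts were 0.01 for both knockdowns. Of all transcripts, 6.8% were called higher and 7.17% lower than Luc with shRad21, and 3.34% and 2.91% with shStag2. More calls with shRad21 than with shStag2 were thus seen over all transcripts too. These values share their Luc libraries, and the direct comparison chose the members from the same knockdown libraries, so they describe the members and test nothing.

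A call in one knockdown and not in the other came with a tested difference between them for a minority of transcripts. Between shRad21 and Luc, 1542 transcripts passed that did not pass between shStag2 and Luc, and the direct test called 126 of these (8.17%). In the other direction there were 211, of which it called 39 (18.5%). It called 1.61% of all transcripts, and these lists come from the libraries of that test. For the remainder a difference between the knockdowns was not detectable with these libraries.

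The naming rule admitted called transcripts with 1 direction in all 3 same-numbered pairs. Their mean over the 6 knockdown libraries had to be at least 1 CPM. Among them, ENSMUST00000044624.6 had the most negative difference. Libraries shStag2 1, 2 and 3 held 45, 47.5 and 53.8 CPM of it, shRad21 1, 2 and 3 held 15.2, 6.1 and 4.41, and Luc 1, 2 and 3 held 20.8, 20.3 and 29.9. Every shStag2 library lay above every Luc library and every shRad21 library lay below, with no overlap between groups. The rule chose the named transcripts on these shStag2 and shRad21 libraries, so such separation describes them and tests nothing. How many of all transcripts separate in this way was not counted. Means were 48.8 ± 4.5 CPM with shStag2, 8.55 ± 5.8 with shRad21 and 23.7 ± 5.4 with Luc (SD, n = 3 each). In edgeR's quasi-likelihood test the log2 fold change of shRad21 against shStag2 was -2.49 (SE 0.25, adjusted p = 1.88e-05). Against Luc, edgeR gave -1.46 (SE 0.26, adjusted p = 0.000679) for shRad21 and 1.03 (SE 0.22, adjusted p = 0.00616) for shStag2.

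Libraries outside the comparison gave further values for ENSMUST00000044624.6. The 2 shSmc1a libraries held 27.9 and 23.7 CPM, inside the range of Luc (edgeR log2 fold change 0.12, adjusted p = 0.9). After EPO, Ery Luc libraries held 12 and 10.8 CPM and Ery shStag2 libraries 32.2 and 30.8, a separate set of cells in which shStag2 was again higher (edgeR log2 fold change 1.48, SE 0.09, adjusted p = 1.32e-48). Its direct difference was called in each of 19 alternative fits, with log2 values from -3.19 to -2.12 and adjusted p-values up to 0.038. No shRad21 library after EPO was analysed here.

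ENSMUST00000203352.1 was the other transcript named for a lower level with shRad21. It passed the CPM minimum through shStag2, with a mean of 1.75 CPM there and 0.588 with shRad21. It held 2.04, 1.95 and 1.25 CPM in shStag2 1, 2 and 3, 0.771, 0.755 and 0.237 in shRad21, and 1.51, 2.25 and 1.56 in Luc. The shRad21 libraries lay below all others, while shStag2 and Luc libraries overlapped. The edgeR log2 fold change of shRad21 against shStag2 was -1.54 (SE 0.28, adjusted p = 0.00634), from 5 to 70 counts per library. Against Luc, edgeR gave -1.59 (adjusted p = 0.000822) for shRad21 and -0.05 (adjusted p = 0.952) for shStag2. The shSmc1a libraries held 1.94 and 1.55 CPM, among the Luc values, so the low level was seen with shRad21 and not in the libraries of the other ring subunit. That contrast between shRad21 and shSmc1a was not tested. After EPO, Ery Luc libraries held 1.19 and 1.01 CPM and Ery shStag2 libraries 3.42 and 2.21 (edgeR log2 fold change 1.35, SE 0.29, adjusted p = 3.26e-05). Without the library set term the HPC difference between shRad21 and shStag2 was about as large, -1.52, with an adjusted p of 0.218 in edgeR.

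ENSMUST00000127792.1 had the largest positive difference by the same rule. It passed the CPM minimum through shRad21, with a mean of 1.93 CPM there and 0.603 with shStag2. It held 0.373, 0.363 and 1.07 CPM in shStag2 1, 2 and 3, 1.47, 1.71 and 2.61 in shRad21, and 0.502, 0.18 and 0.381 in Luc. All shRad21 libraries lay above all shStag2 and Luc libraries. In edgeR the log2 fold change of shRad21 against shStag2 was 1.77 (SE 0.31, adjusted p = 0.00437). Against Luc it was 2.47 (adjusted p = 7.36e-05) for shRad21 and 0.7 (adjusted p = 0.412) for shStag2. The shSmc1a libraries held 0.761 and 1.68 CPM, both above Luc, but edgeR did not call them (log2 fold change 1.32, adjusted p = 0.137). After EPO, Ery Luc libraries held 0.441 and 0.563 CPM and Ery shStag2 libraries 0.371 and 0.14 (edgeR log2 fold change -0.98, adjusted p = 0.281). Without the library set term the HPC difference between shRad21 and shStag2 was about as large, 1.74, with an adjusted p of 0.237 in edgeR.

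The call of ENSMUST00000065587.4 was lost in more fits than those of the other named transcripts. This transcript passed the CPM minimum through shRad21, with a mean of 1.49 CPM there and 0.581 with shStag2. It held 0.204, 0.335 and 1.21 CPM in shStag2 1, 2 and 3 and 0.655, 1.07 and 2.75 in shRad21. Each shRad21 library exceeded the shStag2 library of its number, yet shStag2 3 exceeded shRad21 1 and 2, so the groups overlapped. Luc libraries held 0.137, 0.0899 and 0.173 CPM, from 2 to 5 counts. The edgeR log2 fold change of shRad21 against shStag2 was 1.44 (SE 0.33, adjusted p = 0.0353). In edgeR the difference was as large without the library set term (log2 fold change 1.42, adjusted p = 0.605) and in libraries 1 and 2 alone (1.67, adjusted p = 0.07), but was not called. The adjusted p was 0.0504, 0.172, 0.12, 0.0883, 0.181 and 0.149 without Luc 2, shStag2 1, shStag2 2, shStag2 3, shRad21 2 or shRad21 3.

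**Figure D3:**
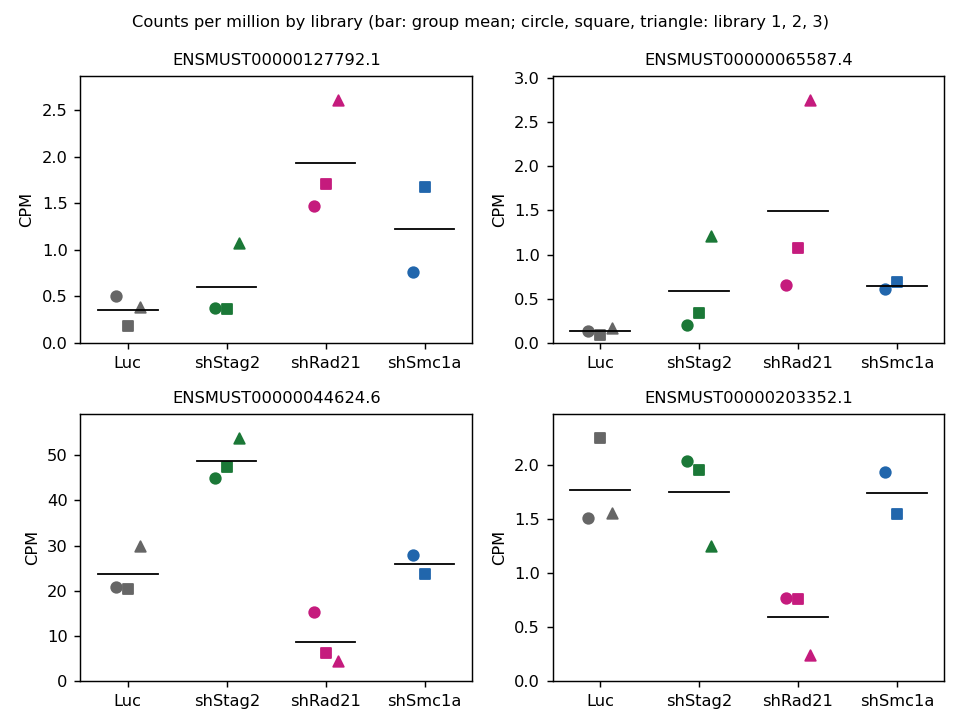
CPM of the 4 named transcripts in each library of the HPC stage, 1 panel per transcript, with a bar at each group mean (3 libraries for Luc, shStag2 and shRad21, 2 for shSmc1a). ENSMUST00000044624.6 lies above Luc in all shStag2 libraries and below it in all shRad21 libraries, and shStag2 3 overlaps the shRad21 values of ENSMUST00000065587.4.

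Libraries numbered 3 gave a separate reading of the direct comparison. Fitted on libraries 1 and 2 alone, with Luc 1 and 2, edgeR called 384 of 17151 transcripts (2.24%), 181 higher with shRad21 (1.06%) and 203 lower (1.18%). Of the 277 calls of all 9 libraries, 210 were among them (75.8% of the 277 and 54.7% of the 384), all 210 in the same direction. Both fits use libraries 1 and 2, so this overlap is partly built in and is no separate reading. Library 3 had no part in the choice of the 384. There, 149 of the 181 (82.3%) were higher in shRad21 than in shStag2, with a median log2 difference of 0.22. Of the 203, 165 (81.3%) were lower, with a median of -0.167. Over all transcripts tested 50.6% were higher and the median was 0.003. A term for a different contrast in library 3 than in libraries 1 and 2 passed for 25 of 18227 transcripts (0.137%) in edgeR. That term rests on 1 library per hairpin in number 3 and on 3 residual degrees of freedom. The low count therefore does not show that the contrasts are equal.

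**Figure D4:**
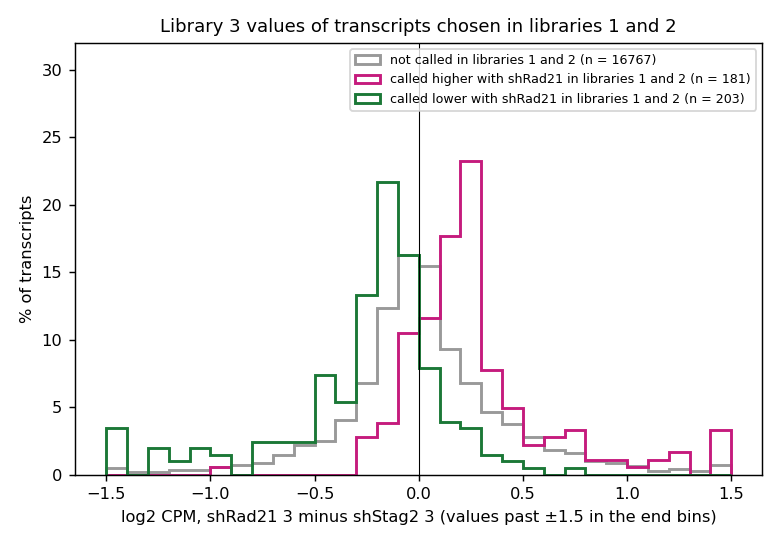
Share of transcripts by their log2 CPM difference between shRad21 3 and shStag2 3, for transcripts called higher (181), called lower (203) or not called in libraries 1 and 2. The called groups are shifted to either side of 0, with 82.3% and 81.3% of their members in the direction seen in libraries 1 and 2.

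The same separation of libraries was used to ask which knockdown moved shared responses farther. In libraries 1 and 2, 598 transcripts were called higher with shStag2 than with Luc (3.49%) and 520 lower (3.03%). In library 3 the 598 had a median log2 difference from Luc of 0.269 with shStag2 and 0.353 with shRad21, although they were chosen on shStag2. The share above Luc 3 went the other way, 83.4% with shStag2 and 81.4% with shRad21 (47.6% and 48.7% of all transcripts). Directly between those knockdown libraries, 393 (65.7%) were higher with shRad21, where 50.6% of all transcripts were, with a median of 0.096. The 520 had medians of -0.27 with shStag2 and -0.324 with shRad21, with 84.4% and 87.1% below Luc 3 (52.4% and 51.3% of all transcripts). Of the 520, 350 (67.3%) were lower with shRad21 than with shStag2, where 49.4% of all transcripts were, with a median of -0.082. In both lists the median between the knockdowns was smaller in size than the median response to shStag2.

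Transcripts chosen on shRad21 gave wider gaps, but that choice by itself favours larger values with shRad21. In libraries 1 and 2, 1055 were called higher with shRad21 than with Luc (6.15%) and 1150 lower (6.71%). In library 3 the 1055 had a median log2 difference from Luc of 0.311 with shRad21 and 0.188 with shStag2. With shStag2, 74.6% of them were above Luc 3, where 47.6% of all transcripts were. The 1150 had medians of -0.233 and -0.124, and 77.2% were below Luc 3 with shStag2, where 52.4% of all transcripts were. Between the knockdowns, 74.8% of the 1055 were higher and 78.3% of the 1150 lower with shRad21, where 50.6% and 49.4% of all transcripts were. Library 3 is 1 library per hairpin, so these shares have no replicate check.

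Loss of Smc1a, another ring subunit, was read in 2 libraries outside the direct comparison. The library set of the shSmc1a libraries is not labelled, and they were fitted with number 3, where an earlier result placed them. Against Luc, edgeR called 427 transcripts higher with shSmc1a (2.45%) and 328 lower (1.88%). Of the 132 transcripts higher with shRad21 than with shStag2, 108 (81.8%) were above Luc with shSmc1a, where 51.4% of all transcripts were. The test called 39 of them higher and 3 lower. Of the 145 lower with shRad21, 100 (69%) were below Luc with shSmc1a, where 48.6% of all transcripts were, with 36 called lower and 8 higher.

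That fit takes its set term in part from shRad21 and shStag2 libraries. Values free of them kept the direction. With both shSmc1a libraries set against Luc 3 alone the shares were 75% and 73.1% (49.1% and 50.9% of all transcripts). With 5 libraries and no set term they were 70.2% and 64.6% (50.1% and 49.9% of all transcripts). If the shSmc1a libraries belong with number 3, library set and hairpin are partly mixed in that last fit. Lists were also chosen the other way round, first in the fit of 11 libraries, which holds the libraries of the pairs. Transcripts called higher with shSmc1a had medians of 0.052, 0.09 and 0.175 for shRad21 minus shStag2 in pairs 1, 2 and 3 (424 measured). Those called lower had medians of -0.065, -0.073 and -0.137 (328 measured). All 3 pairs had the same sign in both lists, and the medians of all transcripts were -0.004, 0.002 and 0.004. With the lists taken from 5 libraries and no set term, pair 1 fell to 0.003 for the higher list and -0.032 for the lower, and pair 3 stood at 0.21 and -0.151.

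The direct differences were also read along the response of control cells to EPO, the hormone that drives erythroid maturation. Ery Luc against HPC Luc, fitted on those 5 libraries, called 3347 transcripts higher (20.2%) and 3291 lower (19.9%). Stage cannot be told apart there from any batch that goes with it. Of the 132 transcripts higher with shRad21 than with shStag2, 131 were measured, and 83 (63.4%) were lower after EPO, where 52.3% of all transcripts were. The test called 56 of them lower after EPO and 30 higher. Of the 145 lower with shRad21, 96 (66.2%) were higher after EPO, where 47.7% of all transcripts were, with 67 called higher and 34 lower.

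The tendency was present in each pair but small. Transcripts that rose after EPO had medians of -0.055, -0.034 and -0.052 for shRad21 minus shStag2 in pairs 1, 2 and 3 (3205 measured), a mean of -0.047 ± 0.011 (SD, n = 3 pairs). Transcripts that fell after EPO had medians of 0.047, 0.028 and 0.061 (3285 measured), a mean of 0.045 ± 0.017. Shares ran from 59.5% to 63.1% below 0 for the first list and from 54.9% to 59.3% above 0 for the second. Of all transcripts, 49.3%, 50.2% and 50.7% were above 0 in pairs 1, 2 and 3. The pairs follow library numbers, which the labels do not give as pairs. The libraries that chose the lists and those that were read do not overlap.

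The Stag2 response after EPO had no single sign in the 3 pairs. Ery shStag2 against Ery Luc called 1908 transcripts higher (12.4%) and 1793 lower (11.6%), with 2 libraries in each group. Of the 131 measured transcripts higher with shRad21 than with shStag2 in HPC, 76 (58%) were higher with shStag2 after EPO, 57 of them called, and 32 were called lower. Of the 145 lower with shRad21, 89 (61.4%) were higher, 65 of them called, and 32 were called lower. Both lists thus leaned to the same side, where 50.2% of all transcripts were higher. Chosen the other way round, transcripts higher with shStag2 after EPO had medians of -0.022, 0.015 and -0.002 in the 3 HPC pairs, which differ in sign, and those lower had 0.003, -0.013 and -0.037.

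**Figure D5:**
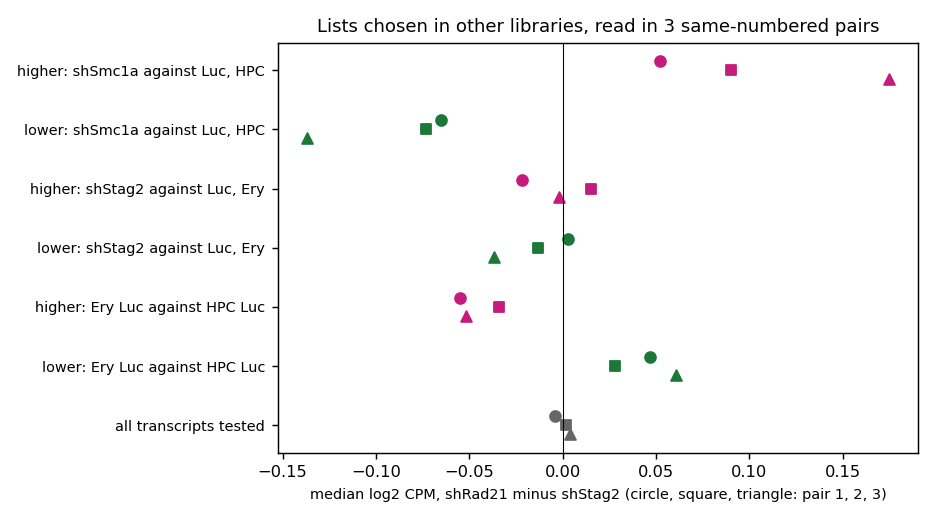
Median log2 CPM difference of shRad21 minus shStag2 in the 3 same-numbered pairs, for lists of transcripts and for all transcripts tested. The EPO and Ery shStag2 lists were chosen in other libraries. The shSmc1a lists come from the fit of 11 libraries, which also holds the libraries read here. With shSmc1a lists from 5 libraries and no set term, which are not drawn, pair 1 medians were 0.003 and -0.032. The shSmc1a lists and the EPO lists lie on opposite sides of 0 in all 3 pairs, from 0.052 to 0.175 and -0.137 to -0.065 for shSmc1a, while the Ery shStag2 lists straddle 0.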

How the data were processed

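Read counts per transcript identifier were deposited by the authors, 1 table per library. The submitters' processing notes name STAR 2.4.0, HTSeq and the build mm10. How HTSeq was set, whether strand was used and which annotation was counted is not given in the sources used here. Reads of transcripts that overlap or nearly match may be split between them or lost as ambiguous. The last lines, which name no transcript, were left out. Reads in no feature came to 15.1% to 18% and ambiguous reads to 24.2% to 26.4% of counted reads in the 9 libraries.

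The 9 HPC libraries of Luc, shStag2 and shRad21 were fitted in edgeR 4.0.16 (R 4.3.3) with filterByExpr, TMM scaling, a mean per group and a term for library number 3, leaving 5 residual degrees of freedom. Each SE is the fold change over the root of the F statistic. Single-library differences are log2 CPM with a prior count of 2. Alternatives were other scalings, filters, sample sets and designs, DESeq2 1.42.0 and leaving out each library. The named transcripts are the 2 largest differences in each direction among transcripts with an adjusted p under 0.05, at least 1 CPM and 1 direction in all 3 pairs. Members, comparisons and lists were chosen with earlier results of these data known. Apart from the direct calls read in the shSmc1a fit of 11 libraries, all readings of transcripts chosen in other libraries were added after the data were seen. Planned gene lists, marker checks and target checks were not run, as no identifier could be named. Promoter capture lists were not used here.

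Same-numbered shStag2 and shRad21 libraries deviated from their group means together, with correlations of 0.14, 0.13 and 0.34 over 17231 transcripts for numbers 1, 2 and 3. Crossed numbers 1 and 2 correlated about as much, at 0.15 for shRad21 1 with shStag2 2 and 0.1 for shRad21 2 with shStag2 1. Number 3 of either hairpin correlated at -0.23 to -0.19 with numbers 1 and 2 of the other. The values thus set number 3 apart and do not pair numbers 1 and 2. The labels do not say that same-numbered libraries are pairs. Replicates differed by more than sampling noise (chi-square per degree of freedom 3.71 to 33.9), so none were merged. On simulated data for this comparison (17231 transcripts, 5 residual degrees of freedom), the model recovered 43 of 67 transcripts changed 1.5-fold, 48 of 67 changed 2-fold and 65 of 66 changed 4-fold, with 9 false calls among 165.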

Additional observations from a re-analysis of the deposited data

How the results depend on the processing

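The direct count of 277 (132 higher, 145 lower) changed by over 1.5 times in these fits. Without the library set term it was 11 (3 and 8), with all 15 libraries and no such term 40 (13 and 27), with 6 libraries and no term 8 (4 and 4), with 6 libraries and the term 643 (318 and 325), and with no filter on low counts 560 (281 and 279). The share of higher calls was 27.3% without the term in 9 libraries and 32.5% in 15. Leaving out 1 library gave 100 to 644 calls, 49 to 315 higher and 50 to 329 lower. The count stayed within 1.5 times under RLE scaling (279), DESeq2 (333), libraries 1 and 2 alone (384) and without the most counted identifier (274). With the replicate block, which treats same-numbered libraries as pairs, it was 196, of which 194 were among the 277, and it changed no call of a named transcript. Against Luc, the counts without the library set term were 890 for shRad21 and 312 for shStag2. Leaving out 1 library gave 1532 to 2397 for shRad21, the lowest without shRad21 2, and 646 to 1169 for shStag2, with 646 and 659 without shStag2 2 and shStag2 1. Causes were not tested. Of the named transcripts, ENSMUST00000127792.1 and ENSMUST00000203352.1 each lost their call in 3 fits and ENSMUST00000065587.4 in 10, with no change of direction. As differences of mean log2(CPM + 1) these 3 were 0.88, -0.8 and 0.62. DESeq2 gave 3 named transcripts an adjusted p of NA. Shares read in libraries outside the choice were recomputed with RLE scaling and with no filter. Of these, 63 stayed within the exact binomial interval of the reported share and 1 did not. That 1 was the share below 0 of the lower shSmc1a list from 5 libraries, 67.1% with no filter and 73.5% with it. The interval counts transcripts as if independent, and both shares come from the same libraries. It marks the size of a change only and tests nothing. Fits of gene lists were not run, because no identifier could be named.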
